A study of Homo sapiens with 5 samples.

Results

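MYC and the 6 genes around it on chromosome band 8q24 (PCAT1, POU5F1B, CASC8, CASC11, PVT1 and CCDC26) were examined in the binding profiles of the transcription factors HSF1 and MYC. A peak was counted for a gene when it touched the stretch from 5 kb upstream of the gene to its end in GENCODE release 44 (GRCh38). Peaks that touched no gene were added when they lay in the 2 Mb window running from 735.4 kb before to 1264.6 kb after the MYC gene start. The rule used positions only and no measured value. It gave 180 of the 49905 peaks in the 4 lists, which were 51 of 6477 in HSF1 replicate 1, 31 of 4492 in HSF1 replicate 2, 67 of 25646 in MYC replicate 1 and 31 of 13290 in MYC replicate 2.

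The profiles came from OVCAR8, an established human ovarian carcinoma line that the study chose because it carries extra copies of both MYC and HSF1. The cells were proliferating and untreated, and each CUT&RUN reaction held 500000 cells fixed with 1% formaldehyde for 1 minute. In CUT&RUN an antibody brings a nuclease to a DNA-bound protein, and the released fragments are sequenced. There were 2 HSF1 libraries, 2 MYC libraries and 1 labelled IgG control. The headers give 1 IgG library as the background of every list, and the labels do not say whether the replicates came from separate cultures.

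MYC pairs with MAX to bind E-box elements and drives genes for growth, ribosomes and metabolism. HSF1 is the main heat shock transcription factor, binds heat shock elements and also drives a gene program in tumors. The MYC gene sits in a region with few other protein-coding genes, surrounded by long noncoding RNA (lncRNA) genes and by enhancers that act on MYC over long distances. The DNA around MYC, including PVT1, is often gained in cancer.

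The members fell into 3 stretches. Upstream of MYC lay PCAT1 (862.7 kb, plus strand), a lncRNA gene first described in prostate cancer, with POU5F1B (97.9 kb) and CASC8 (192.3 kb, minus strand) overlapping its distal end. POU5F1B is a retrocopy of the stem cell factor gene POU5F1, and CASC8 is a lncRNA gene in a cancer susceptibility region. MYC itself spans chr8:127735434-127742951, and the lncRNA gene CASC11 runs the other way and overlaps the first 3553 bp of it. PVT1, a lncRNA gene of 392.6 kb whose own promoter is known as a boundary that limits enhancer contact with MYC, starts 51.6 kb past the MYC end. CCDC26, a lncRNA gene of 1049.6 kb in a region linked to glioma risk, lies farthest downstream. Since CASC11 with its upstream stretch covers the whole MYC gene, every MYC gene peak also counts for CASC11, and each such peak was counted once in the totals.

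Fold enrichment is the height of a peak at its summit over the local IgG background. The pileup is that height in fragments. The authors called HSF1 peaks at p 1e-04 and MYC peaks at p 1e-10, so heights were ranked only within a list, as the percentile of fold enrichment among its peaks. A reproducible peak is a merged interval holding a peak of each replicate, with an overlap of at least 1 bp. With 2 lists against 2, an exact two-sided permutation test cannot go below p = 0.333, so no test was made and the values are set side by side.

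Both factors were called across the locus, and PVT1 held more peaks than any other member in every list. PVT1 had 23 peaks in HSF1 replicate 1, 19 in HSF1 replicate 2, 35 in MYC replicate 1 and 21 in MYC replicate 2. PCAT1 had 11, 4, 11 and 4 peaks in the same order of lists. CCDC26 had 9, 4, 10 and 1. At each of these 3 genes, replicate 1 of a factor held more peaks than replicate 2. The MYC gene had 2 and 1 HSF1 peaks and 3 MYC peaks in each MYC list, while CASC11 had 3, 2, 5 and 3. CASC8 had 1 peak in HSF1 replicate 1, none in HSF1 replicate 2, and 2 and 1 in the MYC lists. POU5F1B had 0 peaks in all 4 lists, which means not called at these depths and thresholds.

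**Figure D1:**
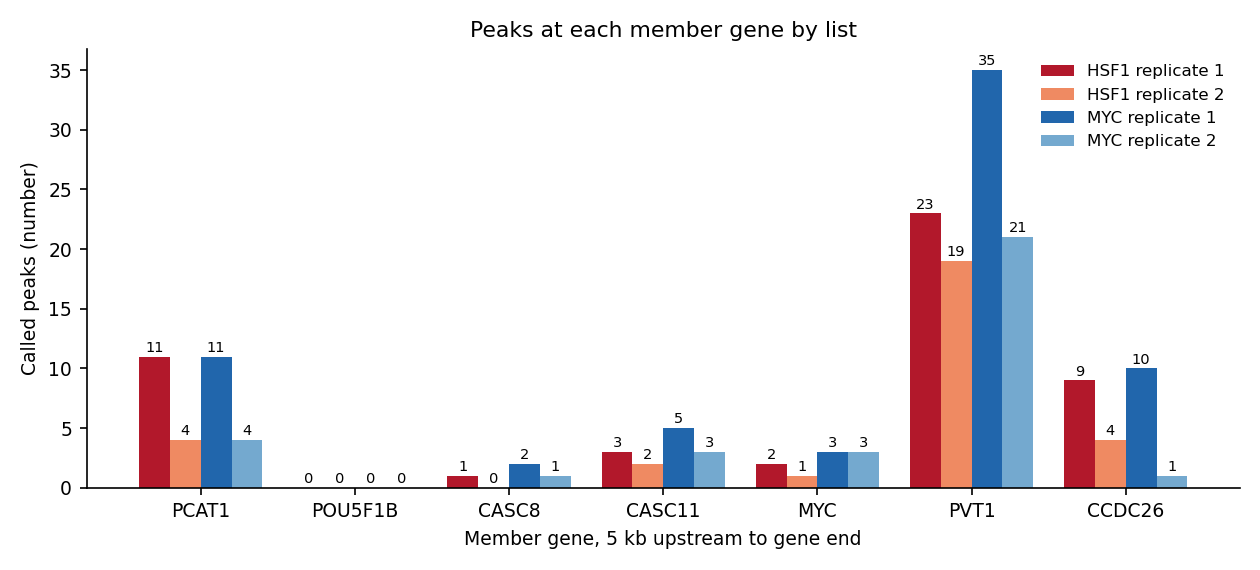
Number of called peaks at each of the 7 genes (5 kb upstream to the gene end) in the 4 lists, 1 bar per list. PVT1 stands highest in every list with 19 to 35 peaks, and POU5F1B has 0.

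Over the 4 lists the peaks joined into 85 sites. Of these, 10 were called in all 4 lists, 19 in 3, 20 in 2 and 36 in 1 list. The sites called in 1 list came from MYC replicate 1 in 22 cases, HSF1 replicate 1 in 10, HSF1 replicate 2 in 3 and MYC replicate 2 in 1. Both factors were called at 38 sites, MYC alone at 30 and HSF1 alone at 17. The 4 lists were joined into sites at the locus only. No share over all peaks therefore stands beside these counts, and they do not set the locus apart. Shares over all peaks are given further below for the overlap of HSF1 with MYC. The HSF1-alone sites include chr8:128388816-128389010, counted as called in 1 list. A MYC replicate 1 peak overlapped it but was left out by the position rule, because it touched the lncRNA gene ENSG00000286034. The 10 sites in all 4 lists were the MYC promoter, a site between MYC and PVT1, and 8 sites within PVT1.

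**Figure D2:**
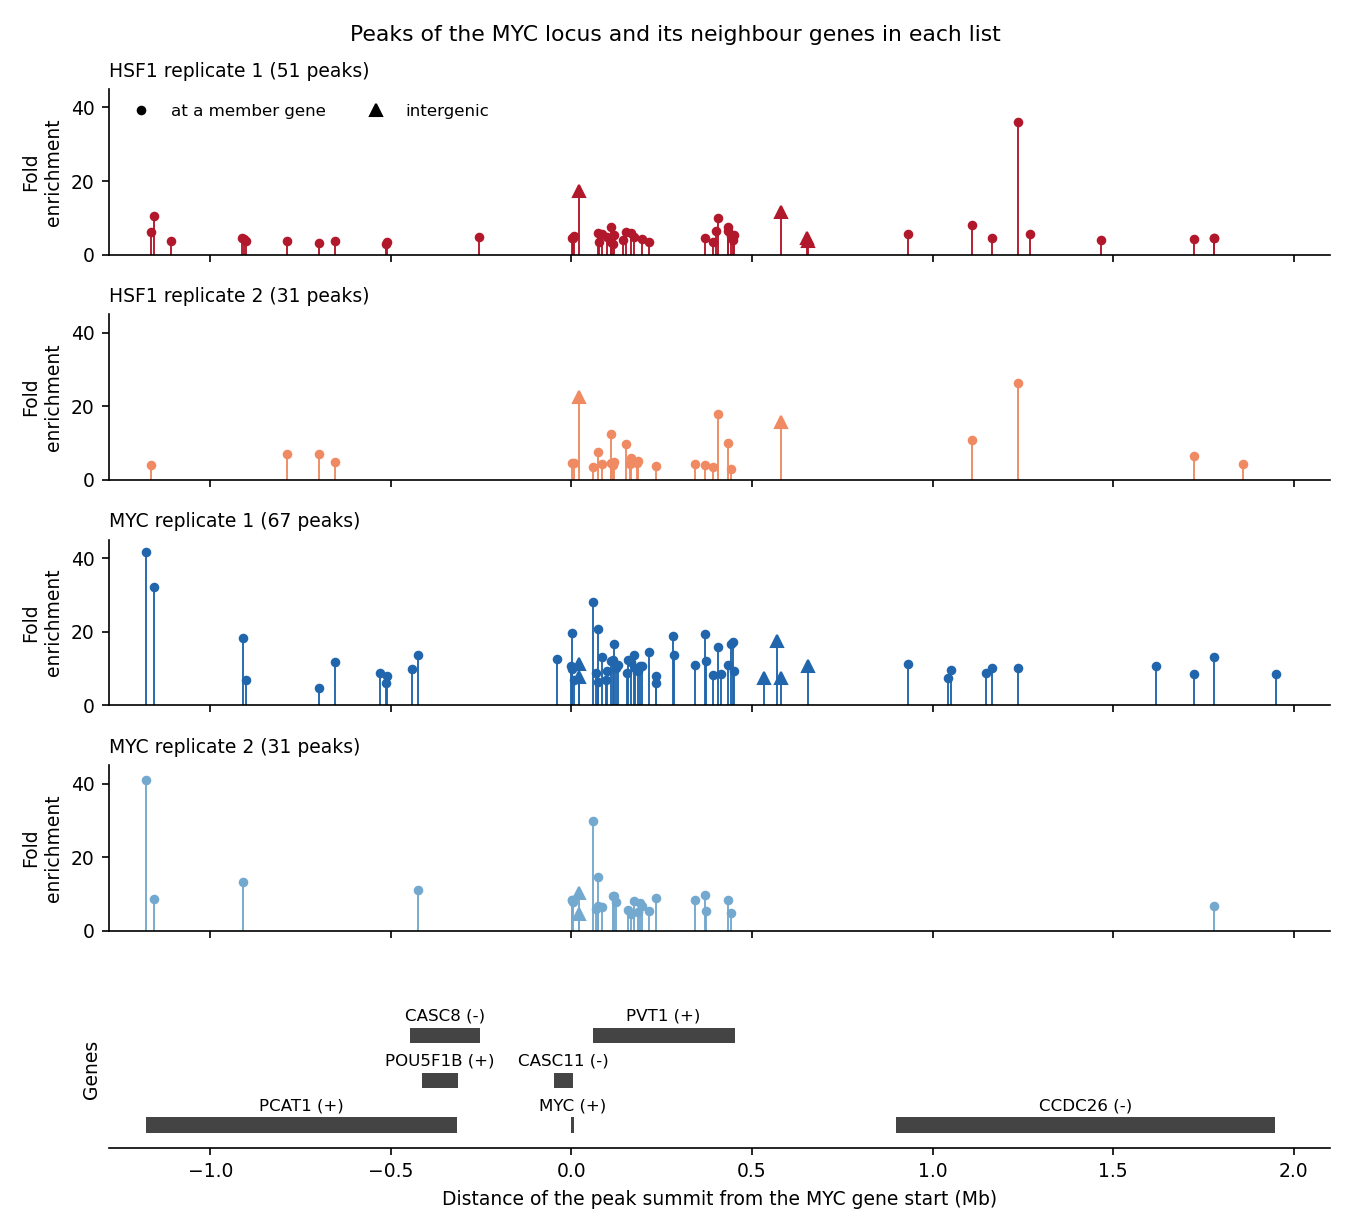
Fold enrichment over IgG (y axis) of every peak in each list against the distance of its summit from the MYC gene start in Mb (x axis), with circles for peaks at the 7 genes, triangles for intergenic peaks and the genes as bars below. The tallest HSF1 peaks lie in CCDC26 and between MYC and PVT1, and the tallest MYC peak lies at the PCAT1 start in both MYC lists (41.7 and 40.9).

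At least 1 peak was called at 6 of the 7 genes in HSF1 replicate 1, 5 in HSF1 replicate 2 and 6 in each MYC list, beside 12.3%, 9.13%, 46.9% and 33.4% of the 38899 protein-coding and lncRNA genes in the same order. A reproducible HSF1 peak was found at 5 of the 7 genes, where 4.74% of those genes had one. A reproducible MYC peak was found at 6 of 7, against 32.2% of all genes, and peaks of each factor at 5 of 7, against 3.67%. MYC and CASC11 share their promoter peaks and are not independent here. With HSF1 at p 1e-10, reproducible HSF1 peaks were found at 2 of the 7 genes, PVT1 (7 peaks) and CCDC26 (2), beside 1.95% of all genes, and the HSF1 peak of the MYC promoter (−log10 p of 9.20 and 9.42) missed that threshold. Long genes offer more room for a peak. Among genes of at least 100 kb, 11.7% had a reproducible HSF1 peak, 42.5% a MYC peak and 8.58% both. Of the 4 members of that length, 3 had an HSF1 peak, 4 a MYC peak and 3 both. There were 23 reproducible HSF1 peaks, 21 at member genes and 2 intergenic, and 28 reproducible MYC peaks, 26 at member genes and 2 intergenic.

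The MYC promoter carried a peak in each of the 4 lists. By fold enrichment it stood high in MYC replicate 1 and below the middle of both HSF1 lists and of MYC replicate 2. For MYC, the replicate 1 peak had a pileup of 80 and a fold enrichment of 19.7, above 85.3% of the peaks in its list. The replicate 2 peak had a pileup of 41 and a fold enrichment of 8.33, above 23.6% of its list. The 2 MYC summits fell on the same base (127736121), 687 bp past the gene start and 110 bp before the start of the main MYC transcript. In HSF1 replicate 1 the pileup was 19 and the fold enrichment 4.57, and in HSF1 replicate 2 they were 19 and 4.67, above 38.1% and 38.8% of their lists. The HSF1 heights were close in both replicates, whereas the MYC fold enrichment was 2.36 times as high in replicate 1 as in replicate 2. The HSF1 summits lay 166 and 139 bp before the main transcript start. The local IgG background there was 3.12 to 4.04 fragments in the 4 lists. Ranked by pileup, which leaves the background out, the same peaks stood above 97.5%, 82.8%, 84.1% and 81.7% of the peaks in MYC replicate 1, MYC replicate 2, HSF1 replicate 1 and HSF1 replicate 2.

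Past the promoter, a second reproducible MYC peak lay in intron 1 of MYC (chr8:127737682-127738132), with fold enrichments of 9.93 and 8.47 in replicates 1 and 2 and no HSF1 peak. In exon 2, HSF1 replicate 1 (4.49) and MYC replicate 2 (7.86) each had a peak, so neither factor was reproducible there. A reproducible HSF1 peak started 118 bp past the MYC gene end (chr8:127743069-127743575), with fold enrichments of 4.96 and 4.52, and MYC replicate 1 (6.84) was also called at it. By position it belongs to the upstream stretch of CASC11. The MYC gene thus had 1 reproducible HSF1 peak, 2 reproducible MYC peaks and 1 HSF1 peak just beyond its end.

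The strongest HSF1 peak near MYC lay outside any gene, between MYC and PVT1. This site (chr8:127755716-127756563) had HSF1 fold enrichments of 17.4 in replicate 1 and 22.4 in replicate 2, with pileups of 39 and 53. It stood above 98.2% and 97.4% of the peaks in those lists. The summits were 11 bp apart, 20.7 kb after the MYC gene start and 13.2 kb after its end, which makes MYC the nearest gene. The HSF1 fold enrichment here was 3.81 and 4.80 times that at the MYC promoter in replicates 1 and 2. MYC was called at it as well, as a pair of reproducible peaks. The first (chr8:127755899-127756301) had MYC fold enrichments of 11.2 and 10.3, and the second (chr8:127756494-127756957) had 7.79 and 4.50. The first stood near the middle of both MYC lists, above 42.9% and 48.3% of their peaks, and the second near the bottom, above 9.98% and 0.196%.

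**Figure D3:**
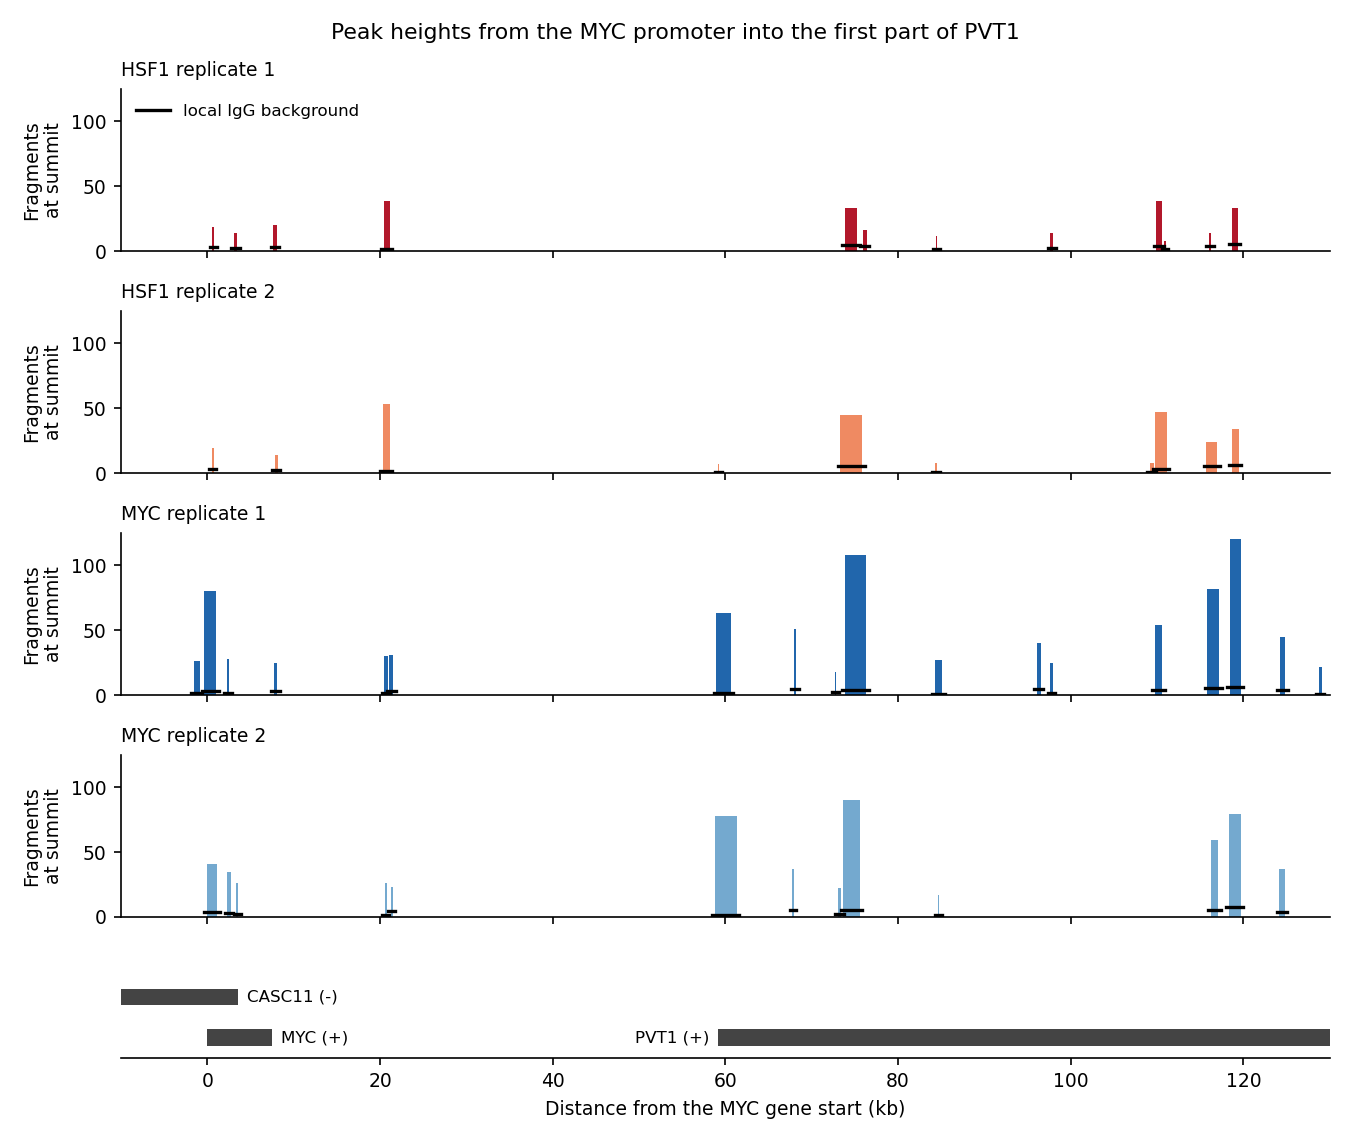
Pileup at the summit (y axis, fragments) of each peak from 10 kb before to 130 kb after the MYC gene start (x axis, kb), drawn over the width of the peak, with the local IgG background as a black line and genes as bars below. HSF1 is taller at the site 20.7 kb after the MYC start (39 and 53 fragments) than at the MYC promoter (19 and 19), and MYC stands at 80 and 41 fragments at the MYC promoter and 63 and 78 at the PVT1 promoter.

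The promoter at the PVT1 gene start was a MYC site. Its peak (chr8:127794207-127796739, summits in exon 1) had MYC fold enrichments of 28.2 and 29.8 and pileups of 63 and 78, above 96.1% and 99.0% of the lists. The only HSF1 peak there was in replicate 2, with a pileup of 7 and a fold enrichment of 3.59. By fold enrichment the PVT1 promoter stood above the MYC promoter in both MYC lists, at 1.43 and 3.58 times its value. By pileup the order turned in MYC replicate 1, with 63 fragments at the PVT1 promoter and 80 at the MYC promoter, where the IgG background was 1.27 and 3.12 fragments.

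Within PVT1 nearly all summits were intronic, with 23 of 23 in HSF1 replicate 1, 18 of 19 in HSF1 replicate 2, 34 of 35 in MYC replicate 1 and 20 of 21 in MYC replicate 2. These counts refer to the canonical transcript, which has 11 exons in a gene of 392.6 kb. The intronic share of the gene was not worked out, so the counts do not set the peaks apart. PVT1 had 12 reproducible HSF1 peaks and 19 reproducible MYC peaks, and 8 of each overlapped the other factor. The tallest shared site lay in intron 2 (chr8:127808423-127811780), with HSF1 fold enrichments of 5.99 and 7.47 and MYC fold enrichments of 20.8 and 14.7. A second in the same intron (chr8:127853755-127855139) had HSF1 values of 5.32 and 4.94 and MYC values of 16.8 and 9.32. Both MYC peaks were taller in replicate 1. The shared site with the highest HSF1 values was chr8:128167571-128168868 in intron 10, where HSF1 had 7.56 and 10.1 and MYC 10.9 and 8.36.

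The 2 HSF1 peaks of PVT1 with the highest mean fold enrichment overlapped no reproducible MYC peak. The next by mean was the shared intron 10 site. In intron 6 (chr8:128142009-128142915) HSF1 had fold enrichments of 10.1 and 17.99, with summits above 94.0% and 96.1% of their lists, and MYC was called in replicate 1 only (15.7). In intron 2 (chr8:127845243-127846535) HSF1 had 7.52 and 12.6, and again MYC replicate 1 only was called (12.1). This intron 2 peak also lies within 1 kb of another annotated PVT1 start site, inside the gene. A further HSF1 peak in intron 2 (chr8:127887107-127887658), with 6.24 and 9.71, had no MYC peak in either list.

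Read per length, PVT1 was among the most densely called long genes. It had 5.79 HSF1 peaks per 100 kb in replicate 1 and 4.78 in replicate 2, and 8.80 and 5.28 MYC peaks. Among the 5106 genes of at least 100 kb, 1 (0.0196%) had at least as many HSF1 peaks per 100 kb in replicate 1, which was PVT1 itself, and the same held in replicate 2. For MYC, 10 genes (0.196%) including PVT1 reached its density in each replicate. With HSF1 called at p 1e-10, as MYC was, PVT1 kept 11 and 8 HSF1 peaks, and 3 genes (0.0588%) including PVT1 reached its density in each list.

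PCAT1 held peaks of each factor. Its strongest was a MYC peak over its gene start (chr8:126555963-126558612), which also covers the start of LRATD2, a protein-coding gene that runs the other way. The MYC fold enrichment was 41.7 and 40.9 with pileups of 95 and 109, above 99.4% and 99.8% of the lists, and no HSF1 peak was called. This was the tallest MYC peak of the locus by fold enrichment in both replicates. By pileup, 3 PVT1 sites were higher in MYC replicate 1 (120, 112 and 108 fragments). A second MYC peak in intron 1 (chr8:126579766-126580378) had 32.0 in replicate 1 but 8.65 in replicate 2, and HSF1 replicate 1 was called there too (10.52). In intron 4 (chr8:126824551-126825152) MYC had 18.3 and 13.2, and HSF1 replicate 1 was called there as well (4.53). The 4 reproducible HSF1 peaks of PCAT1 had fold enrichments of 3.24 to 6.06 in replicate 1 and 3.95 to 7.08 in replicate 2. The lowest and highest stood above 5.03% and 70.6% of the list in HSF1 replicate 1, and above 15.7% and 75.3% in HSF1 replicate 2. Of the 4, 0 overlapped a reproducible MYC peak. MYC replicate 1 alone was called at 2 of these 4, with fold enrichments of 4.83 and 11.8.

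CASC8 shared 1 reproducible MYC peak with the distal end of PCAT1 (chr8:127311617-127312068, intron 5 of CASC8). The MYC fold enrichment was 13.8 and 11.1, above 62.3% and 57.8% of the lists. No HSF1 peak was called at it.

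CCDC26 was the gene where HSF1 stood highest. In intron 6 (chr8:128972057-128973944) the HSF1 fold enrichment was 35.9 in replicate 1 and 26.4 in replicate 2, with pileups of 94 and 64 and summits 7 bp apart. These stood above 99.7% and 98.3% of all HSF1 peaks in their lists, and the MYC signal there was called in replicate 1 only (10.2). Another HSF1 peak in intron 6 (chr8:128845241-128845706) had 8.03 and 10.98 with no MYC peak. The last (chr8:129459457-129460088, intron 2) had 4.33 and 6.49, and MYC replicate 1 was called at it (8.61). The single reproducible MYC peak of CCDC26 lay in intron 1 (chr8:129515540-129516098), with fold enrichments of 13.1 and 6.74, and HSF1 replicate 1 was called there (4.40). Thus CCDC26 had 3 reproducible HSF1 peaks and 1 reproducible MYC peak, and these reproducible peaks did not overlap each other.

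The other reproducible intergenic HSF1 peak lay 579.5 kb after the MYC gene start (chr8:128314439-128315070), between PVT1 and CCDC26. The nearest gene was the lncRNA gene ENSG00000286034, 8.23 kb away. HSF1 had fold enrichments of 11.7 and 15.7 there, above 95.8% and 94.8% of the lists, and MYC replicate 1 alone was called (7.53). No intergenic peak away from these 2 sites was reproducible.

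Set against the rest of the series, HSF1 and MYC met at the locus about as often as elsewhere when counted from HSF1. Of the 23 reproducible HSF1 peaks, 10 (43.5%, exact 95% interval 23.2 to 65.5, counting error only) overlapped a reproducible MYC peak, beside 42.8% of all reproducible HSF1 peaks. Counted from MYC, 11 of 28 (39.3%) overlapped a reproducible HSF1 peak, beside 7.73% over all reproducible MYC peaks. The first share moved with the MYC list required. With MYC replicate 1 alone in place of the reproducible MYC peaks, 19 of 23 (82.6%) overlapped, and with MYC replicate 2 alone 9 of 23 (39.1%).

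By single lists, 70.6% of the 51 HSF1 replicate 1 peaks of the locus overlapped a MYC replicate 1 peak (67.0% of all) and 31.4% a MYC replicate 2 peak (34.8% of all). For HSF1 replicate 2 the shares of its 31 peaks were 77.4% (57.6% of all) and 41.9% (39.2% of all). The HSF1 replicates met each other more often here than over the whole list, at 47.1% beside 34.0% for replicate 1 on replicate 2 and 74.2% beside 48.3% for the reverse. The MYC replicates did not, at 41.8% beside 46.9% and 90.3% beside 92.6%.

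The heights of the reproducible peaks differed between replicates in a way that ran through most of the locus. Of the 28 reproducible MYC peaks, 26 had the higher fold enrichment in replicate 1 and 2 in replicate 2, the PVT1 promoter and a PVT1 site 234.5 kb after the MYC start. Over all reproducible MYC peaks replicate 1 was higher in 82.1%. Of the 23 reproducible HSF1 peaks, 16 were higher in replicate 2 and 7 in replicate 1. Replicate 1 was higher in 42.5% of all reproducible HSF1 peaks. The 2 summits of a peak lay a median of 63 bp apart for HSF1 (7 to 414) and 86 bp apart for MYC (0 to 576).

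**Figure D4:**
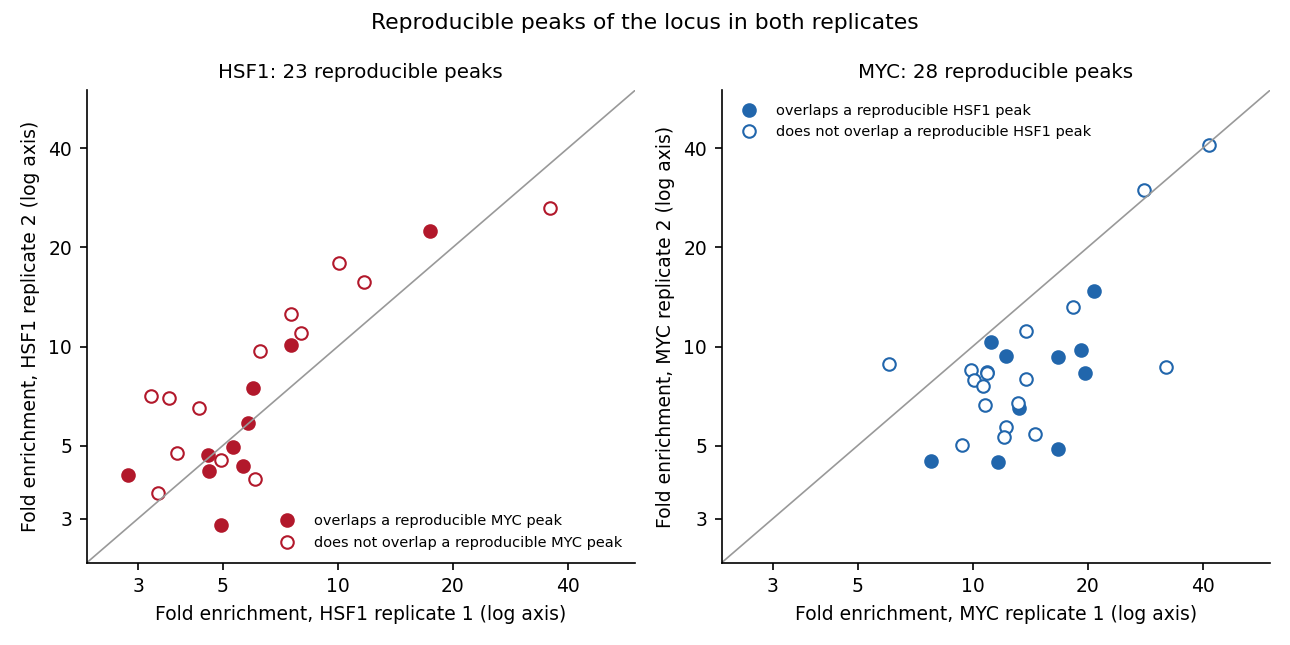
Fold enrichment of each reproducible peak of the locus in replicate 1 (x axis) and replicate 2 (y axis), both log axes, for HSF1 (left, 23 peaks) and MYC (right, 28 peaks), with filled points where the other factor has an overlapping reproducible peak and the diagonal for equal values. 26 of 28 MYC points lie below the diagonal, and 16 of 23 HSF1 points lie above it.

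The 2 Mb window around MYC was crowded with HSF1 peaks. It held 43 in replicate 1, the most of 1453 such windows over chromosomes 1 to 22, X and Y (median 3), so that 1 window (0.0688%), the window itself, held at least as many. In HSF1 replicate 2 it held 27, and 4 windows (0.275%) held at least as many. MYC had 63 and 28 peaks in it, and 41 (2.82%) and 100 (6.88%) windows held at least as many. With HSF1 called at p 1e-10 the window kept 18 and 13 peaks, and 1 (0.0688%) and 3 (0.206%) windows held at least as many.

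The IgG background was also high at these peaks. In HSF1 replicate 1 its median was 2.08 fragments at the peaks of the locus and 1.08 over the list, a ratio of 1.93. The ratio was 1.65 for HSF1 replicate 2, and the MYC lists had 2.13 and 2.24. The median pileup at the locus was likewise above that of the lists, at 14 beside 11, 17 beside 10, 34 beside 25 and 34 beside 25, whereas the median fold enrichment was below it, at 4.58 beside 5.00, 4.76 beside 5.21, 10.7 beside 12.2 and 7.96 beside 10.47. Among windows with at least 5 peaks, the MYC window was 36th of 524 and 15th of 348 by median background in the HSF1 lists, and 5th of 1064 and 3rd of 761 in the MYC lists. Set against the rest of chromosome 8, the ratios were 1.41, 1.504, 1.67 and 1.93. DNA copy number was not measured in these data, and the part of the background in the number of called peaks was not tested.

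**Figure D5:**
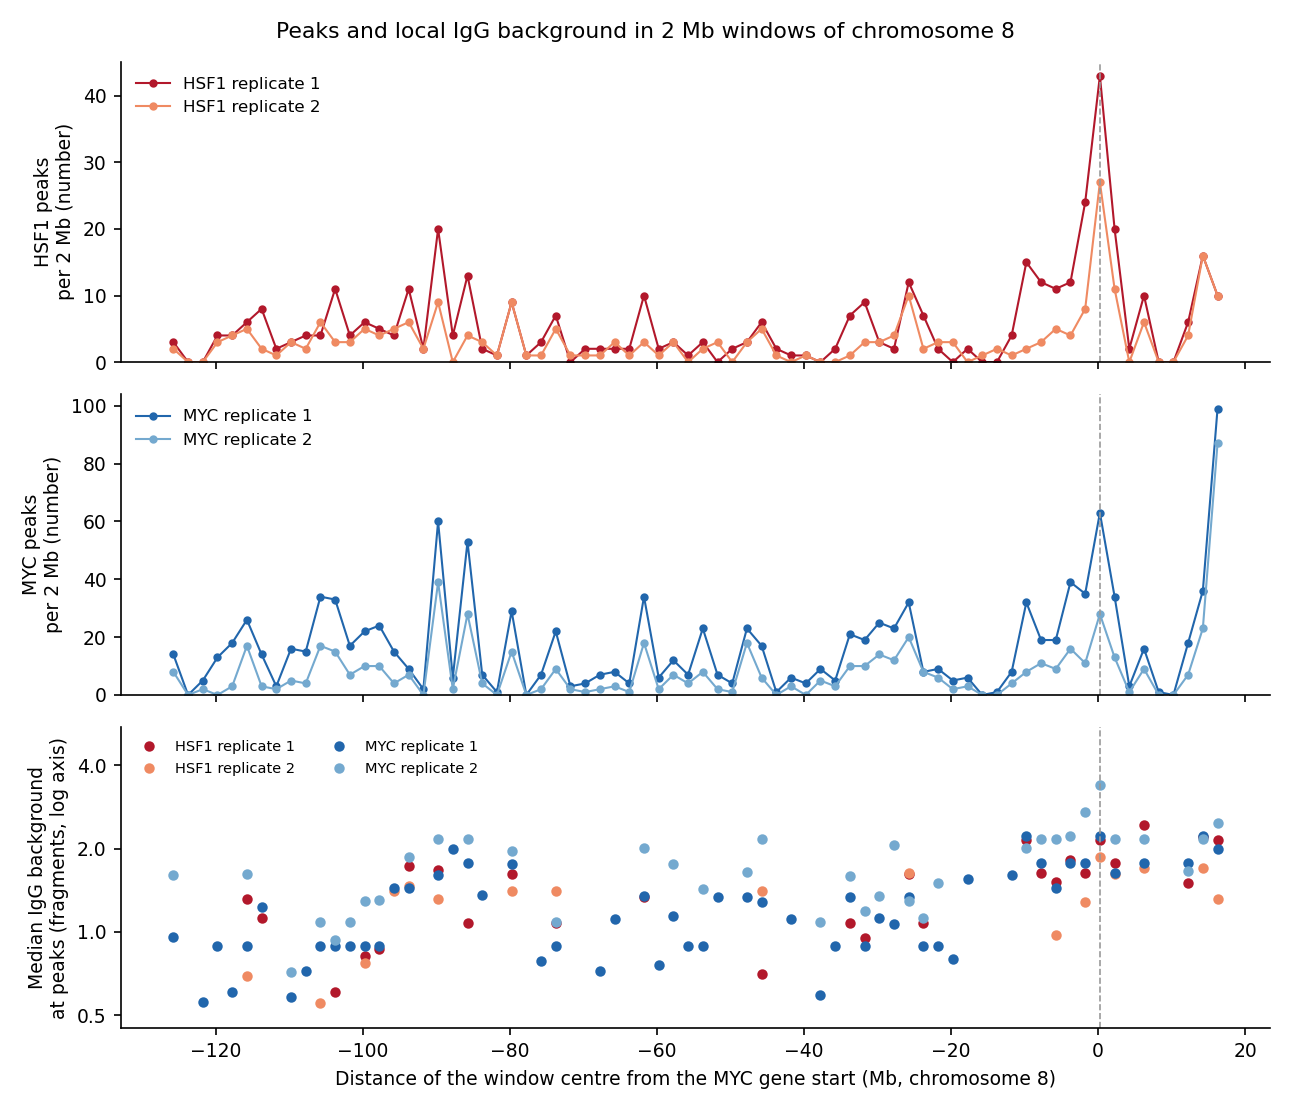
Number of HSF1 peaks (top) and MYC peaks (middle) and the median IgG background at peaks (bottom, fragments, log axis, windows with at least 5 peaks) in 2 Mb windows of chromosome 8, against the distance of the window centre from the MYC gene start in Mb, with the MYC window as a dashed line. The MYC window has the most HSF1 peaks of the chromosome in both lists (43 and 27), and its background is 1.87 to 3.39 fragments.

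Few summits of the locus had a core binding motif nearby, and most summits of the whole lists had none either. The E-box was searched as CACGTG and the heat shock element as GAA and TTC alternating over 3 units with any 2 bases between units, starting with either, which covers both strands. The searched stretch reached 100 bp to each side of a peak's tallest summit. An E-box was found in 0 of the 28 reproducible MYC peaks, beside 8.31% of all reproducible MYC peaks. In the single lists it was found in 1 of 67 peaks of MYC replicate 1 (6.74% of all) and 0 of 31 of MYC replicate 2 (6.82% of all). Over the whole width of the peak it was found in 4 of 28, beside 30.4%, at the PCAT1 start, the PVT1 promoter and 2 intronic PVT1 sites. At the PCAT1 start 1 of its 2 E-boxes begins 99 bp from the summit and so runs past the edge of the searched window. The MYC promoter peak held none over its whole width.

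A heat shock element was found near the summit in 1 of the 23 reproducible HSF1 peaks, beside 10.1% of all reproducible HSF1 peaks. In the single lists it was found in 3 of 51 peaks of HSF1 replicate 1 (6.51% of all) and 1 of 31 of HSF1 replicate 2 (5.97% of all). That peak was the site between MYC and PVT1, where the element begins 84 bp before the HSF1 summit of replicate 2. The same letters lie 33 bp past the summit of the MYC replicate 1 peak there. Over the whole peak 5 of 23 had one, beside 25.2%, which were this site, the other intergenic HSF1 peak, the PVT1 peaks at chr8:127887107-127887658 and chr8:128142009-128142915, and 1 CCDC26 peak (chr8:128845241-128845706). The strongest HSF1 peak of the locus, in CCDC26, had none. No match says only that these letters are not in the searched stretch.

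Of 17 other genes of 8q24 listed beside the members, 11 were matched by symbol in the annotation. Reproducible MYC peaks were found at 5 of them (TRIB1, LRATD2, LINC02912, CYRIB and ASAP1), beside 32.2% of all protein-coding and lncRNA genes. Reproducible HSF1 peaks were found at 4 (PRNCR1, CASC19, CYRIB and ASAP1), beside 4.74%, and both at 2, beside 3.67%. PRNCR1 and CASC19 were counted on the same HSF1 peak. The peaks of LRATD2, PRNCR1 and CASC19 are also peaks of PCAT1, and that of LINC02912 is also a peak of PVT1. CYRIB, a regulator of RAC1 signalling, had MYC fold enrichments of up to 49.2 and 36.1, and HSF1 values of up to 6.80 and 4.52. The HSF1 gene itself, at the far end of the arm, had a MYC peak with fold enrichments of 25.0 and 21.7 and 0 HSF1 peaks. The IgG background at it was 1.12 and 1.35 fragments, below the medians of 2.22 and 3.25 at the MYC locus in the same lists. Those medians cover mostly intronic peaks. Among promoter peaks of the locus, the background was 1.27 and 1.65 at the PVT1 promoter, 1.30 and 1.69 at the PCAT1 start, and 3.12 and 4.04 at the MYC promoter.

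The promoter pattern of MYC was compared with 20005 protein-coding genes by the percentile of the tallest peak within 1 kb of any start site in each of the 4 lists, as a Euclidean distance. For MYC these percentiles were 38.1, 38.8, 85.3 and 25.4, the last from the intron 1 peak, which lies close to another MYC start site. The nearest genes were AGPAT1 and RNF5, which share a peak (distance 9.26), MPV17L2 (13.7), and VRK3 and ZNF473, which also share one (15.5). For PVT1 the percentiles were 86.0, 92.2, 96.1 and 99.0. The HSF1 values came from the intron 2 peak at chr8:127845243-127846535, near a start site inside the gene. The nearest genes were IGF2BP1 (5.95), NOP58 (7.03), HSPA9 (7.15), ZC3HAV1 (7.56) and SEC31A (8.02).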

How the data were processed

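The data were 4 CUT&RUN peak lists of OVCAR8 cells, 2 of HSF1 and 2 of MYC. Per the labels and the methods, the authors used Bowtie 2 for alignment to GRCh38 and MACS 2.2.9.1 for peak calling, each library alone and against the same IgG library, with p thresholds of 1e-04 (HSF1) and 1e-10 (MYC). In the headers this control carries the name IgG replicate 2, whereas 1 IgG control is labelled, and whether both are 1 library is not given in the sources used here. After filtering, 8265647 to 10084407 fragments remained in the antibody libraries and 9306942 in the IgG library.

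The authors deposited the pileup, a signal in fragments, the −log10 p-value and a ratio to the local background called fold enrichment. Pileups at the locus were whole numbers of fragments in every list, so they were not scaled for depth between lists. The −log10 q-value was not used. The background was worked out as (pileup + 1) / fold enrichment − 1. The −log10 p-values recomputed from it by the Poisson test differed by at most 0.0031% from those listed. The largest −log10 p-values were left out of that check. Peaks were compared with pandas 2.3.3, numpy 2.4.6, scipy 1.17.1 and pysam 0.24.0 in Python 3.11.15, and drawn with matplotlib 3.10.9. Background shares cover chromosomes 1 to 22, X and Y. Overlap and gene assignment were tested on simulated lists and recovered exactly in 20 of 20 runs. Locations refer to the canonical transcript.

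The members, gene lists and alternatives were chosen with earlier results of these data known. Genes named are the 7 members, other 8q24 genes of a listed set with a reproducible peak, HSF1, genes nearest to a described intergenic peak and the 5 protein-coding genes most like MYC and PVT1. Sites were described for every member, and which of PVT1's sites are given in full was chosen after their values were seen. Alternatives covered thresholds, gene windows, replicates, overlap rules, height measures, background references and motif windows. The interval given covers only the error of counting. It treats the peaks as independent, although neighbouring peaks of a locus are not replicates.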

Additional observations from a re-analysis of the deposited data

How the results depend on the processing

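No paired analysis was possible because the results come from no test.

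The threshold moved the HSF1 counts most. At p 1e-10 in all lists the HSF1 peaks at members went from 47 and 29 to 15 and 13, the member genes with a reproducible HSF1 peak from 5 to 2 and the reproducible HSF1 peaks of the 2 Mb window from 20 to 11. At p 1e-20 these were 3 and 6, 2, and 4, the MYC replicate 2 peaks at members went from 29 to 15 and the reproducible MYC peaks of the window from 25 to 15. With HSF1 alone at p 1e-10, an alternative chosen after seeing the data, the genes as dense as PVT1 went from 1 to 3 in both HSF1 lists, and the windows with as many reproducible HSF1 peaks as the MYC window from 3 to 1. The union of replicates gave 49 HSF1 and 66 MYC peaks in the window and an overlap of 72.4%. Leaving out 1 replicate gave 27 to 43 HSF1 and 28 to 63 MYC peaks in the window, 5 to 6 member genes for HSF1 and 6 for MYC, and an overlap of 35.3% to 82.6%, the last without MYC replicate 2.

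Ranked by pileup, the MYC promoter peaks stood above 84.1% and 81.7% of the HSF1 lists and 82.8% of MYC replicate 2, and by −log10 p above 66.6% and 63.8% of the HSF1 lists and 63.2% of MYC replicate 2 (23.6% by fold enrichment). Within 100 kb of the MYC start, the background ratios were 2.58, 1.99 and 1.96 in HSF1 replicate 1, HSF1 replicate 2 and MYC replicate 2. Against the rest of chromosome 8 they were 1.41, 1.67 and 1.93 in HSF1 replicate 1, MYC replicate 1 and MYC replicate 2. The E-box share over whole peaks was 14.3%. Of the 72 alternatives, 41 were counted as the same, being within 1.5 times the count or within the spread or counting interval of the main value. That spread or interval could be wide, so being counted as the same does not mean a small change. The 41 include the MYC replicate 2 promoter by −log10 p (63.2% beside 23.6%). They also include the heat shock element share, which was 21.7% over whole peaks and 4.35% near the summit. Depth limits what is called: a site missing from a list was not called, which does not show that the factor was absent.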
